A study of Mus musculus with 16 samples.

Results

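Cells build sterols and fatty acids from acetyl-CoA, and the 37 genes described here encode that synthesis and its control. They were taken from a written list: 19 enzymes of the mevalonate and sterol route, 6 genes of the sterol-sensing SREBP system with the sterol carrier Stard4, 8 enzymes of fatty acid synthesis, elongation and desaturation, and 4 genes of the sterol-sensing nuclear receptor LXR. All 37 were found among the 38918 features counted, 36 by symbol and Msmo1 by its older symbol Sc4mol, and all 37 reached 1 read per 1000000 exon reads (CPM) in at least 1 condition, as did 11122 features in all. Each also reached 5 CPM, the minimum in the higher library for a change to be counted. The percent of all features past the same line stands beside the first count in each comparison.

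The cells were mouse pre-B cells from Blnk-/- animals. They lack the adaptor BLNK, which passes the signal of the pre-B cell receptor to the enzymes downstream. All carried a retroviral BLNK-ERt2 construct, a fusion that tamoxifen switches on, and the control cells carried it too. RNA was taken from control cells and after 0.5, 1.5 and 5 h of stimulation. The labels do not say what the control received, from how many animals or clones the cells came, or which of 2 library kits served which condition, so kit and condition cannot be told apart.

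The 16 samples were 4 sequencing lanes of each of 4 libraries, 1 library per condition. There is therefore no replicate and no test between conditions, and all intervals are exact Clopper-Pearson 95% intervals of counting error alone. Summed libraries held 34533362, 33864004, 32631061 and 30746189 exon reads in the order control, 0.5, 1.5 and 5 h, and 3 reads were worth 0.0869 to 0.0976 CPM. Of 10 pre-B markers, 9 were found, all above 1 CPM, with a summed level of 9945 to 12200 CPM; Ebf1 could not be matched to 1 feature. No T or NK marker of 5 and no stromal marker of 4 reached 1 CPM, and Cd4, Ncr1, Col3a1 and Cxcl12 had 0 reads. Of 5 myeloid markers, 3 passed 1 CPM with a sum of 38.2 to 72.2 CPM. Most of it was Itgam, at 69.0, 66.3, 58.5 and 35.9 CPM in time order, while Csf1r and Adgre1 stayed under 0.3 CPM. Of 4 erythroid markers 1 did, Hbb-bt. Whether the Itgam difference has any part in the results was not tested. A lower share of a transcript in such bulk RNA may come from fewer expressing cells or from less RNA per cell, which cannot be told apart.

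As background, the mevalonate pathway condenses acetyl-CoA to HMG-CoA, turns it into isoprenoid units and joins these to squalene, from which cholesterol is made. SREBP transcription factors sit in the endoplasmic reticulum bound to SCAP; when sterol is scarce they move to the Golgi, are cut free and switch on sterol and fatty acid genes, and when sterol is plentiful INSIG proteins hold them back. LXR answers to plentiful sterol: oxidised sterols activate it, and it switches on exporters and a ligase that removes the lipoprotein receptor. Lymphocytes that start to grow and divide are known for raising lipid synthesis.

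At 1.5 h many sterol genes were higher than in control and LXR targets were lower, and at 5 h most sterol genes were lower and the LXR targets were back near control. The changes were small. No member reached 2-fold against control at any time, which 0.305% of features did at 0.5 h, 0.852% at 1.5 h and 0.735% at 5 h. The counts below therefore use lines of 1.2-fold and 1.5-fold, taken on log2(CPM + 1), while printed folds are plain ratios of CPM.

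**Figure D1:**
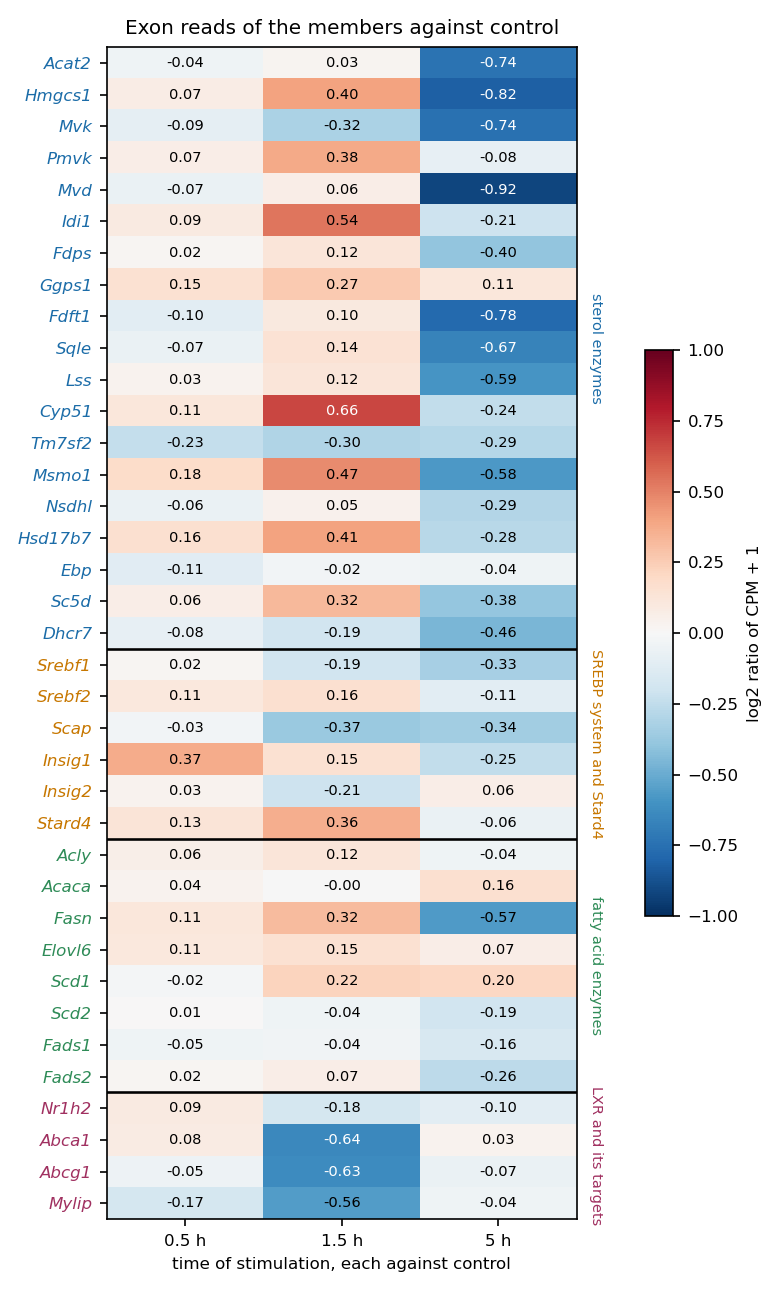
Log2 ratio of CPM + 1 against control for the 37 members (rows, grouped by role) at 0.5, 1.5 and 5 h (columns), with 1 library per condition and no error estimate. Most sterol enzymes are above 0 (red) at 1.5 h (15 of 19, beside 5264 of 11122 features measured), some of them only slightly. At 5 h most are below 0 (blue; 18 of 19, beside 5648 of 11122 features). Abca1, Abcg1 and Mylip are lowest at 1.5 h, and Mylip is already lower at 0.5 h (-0.17).

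To show the regulatory sequence next to the genes, promoters of the members that turned out largest or regulate the rest are given first. RefSeq promoter entries (GRCm38.p6, the same coordinates as mm10) existed for 29 of the 37 members, as 37 promoters, and the 250 bases before each start were searched on both strands. Searched letters were TCACNCCA and CACCCNAC, cores of the sterol regulatory element that SREBP binds, CACGTG, the E box, CCAAT, the box of the factor NF-Y, and GGGCGG, the box of Sp1. Capitals mark the element cores, the E box and the CCAAT box, which reads ATTGG on the other strand, and Sp1 boxes are left in lower case. Bases that lie inside the counted gene were left out of the printed sequences only. The counts over groups use all 250 bases of each entry, also where these lie inside the counted gene. Hmgcs1 and Mvd were shown because they are the members with the largest difference at 5 h that have an entry, Insig1 and Srebf2 because they belong to the sensor, and Abca1 because it is an LXR target.
Hmgcs1 (chr13:119690101-119690350, plus strand): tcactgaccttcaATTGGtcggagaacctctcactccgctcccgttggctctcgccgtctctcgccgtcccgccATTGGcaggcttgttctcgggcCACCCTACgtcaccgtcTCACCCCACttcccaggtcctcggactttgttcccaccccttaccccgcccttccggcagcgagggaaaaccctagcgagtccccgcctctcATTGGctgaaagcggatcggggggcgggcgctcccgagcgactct
Mvd (chr8:122443423-122443672, minus strand): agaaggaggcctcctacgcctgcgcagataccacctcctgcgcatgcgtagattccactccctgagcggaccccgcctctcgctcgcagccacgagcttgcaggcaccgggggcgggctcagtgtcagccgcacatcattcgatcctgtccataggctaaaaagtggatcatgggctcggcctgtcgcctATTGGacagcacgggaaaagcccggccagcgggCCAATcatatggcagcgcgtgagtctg
Insig1 (chr5:28071162-28071362, plus strand): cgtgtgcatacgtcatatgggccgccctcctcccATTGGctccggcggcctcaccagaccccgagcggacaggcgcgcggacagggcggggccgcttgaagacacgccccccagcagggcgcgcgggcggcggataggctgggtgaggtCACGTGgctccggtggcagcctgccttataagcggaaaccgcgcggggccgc
Srebf2 (chr15:82147019-82147265, plus strand): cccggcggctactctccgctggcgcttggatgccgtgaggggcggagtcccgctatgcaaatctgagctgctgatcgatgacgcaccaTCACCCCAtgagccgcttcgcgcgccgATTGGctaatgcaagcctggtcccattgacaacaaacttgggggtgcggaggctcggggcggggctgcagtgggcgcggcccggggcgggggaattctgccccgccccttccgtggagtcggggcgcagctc
Abca1 (chr4:53159896-53160145, minus strand): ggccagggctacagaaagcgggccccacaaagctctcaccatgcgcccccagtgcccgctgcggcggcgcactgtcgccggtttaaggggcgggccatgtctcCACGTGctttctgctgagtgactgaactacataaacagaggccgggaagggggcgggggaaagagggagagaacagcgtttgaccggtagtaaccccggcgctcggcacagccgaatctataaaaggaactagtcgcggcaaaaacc

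The Hmgcs1 sequence held 3 matches to the element cores, of which TCACCCCA and CACCCCAC share all but their outermost base, and 3 CCAAT boxes. Mvd held 2 CCAAT boxes and no element core. Srebf2, which encodes the SREBP that mainly drives sterol genes, held TCACCCCA and, closer to the start, 1 CCAAT box. Insig1 held 1 CCAAT box and an E box, and Abca1 an E box without a CCAAT box.

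Across the sterol enzymes the CCAAT box was the most frequent of these letters next to the Sp1 box. It was present in 15 of 19 promoters, belonging to 15 of 16 genes with an entry, against 33.9% of all 32851 promoters and 36.1% of the 10275 promoters of features above 1 CPM. Only Acat2 lacked it among those 16 genes. For Cyp51, Dhcr7, Idi1, Msmo1 and Tm7sf2 every CCAAT box found lay inside the counted gene, so the count is not one of upstream boxes alone. Either element core was in 4 of the 19 promoters, those of Acat2, Hmgcs1, Msmo1 and Nsdhl, against 7.44% of all and 7.22% of measured-feature promoters. That of Msmo1 also lay inside the counted gene. An E box was in 3 of 19, against 6.02 and 8.50%. The Sp1 box was also in 15 of 19, against 32.7 and 57.9%. Among fatty acid enzymes 1 of 5 promoters, Fasn, held a CCAAT box, and among LXR genes 1 of 3, Mylip. These matches describe letters in a short window and say nothing of binding.

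In the enzymes that make mevalonate, Hmgcs1 had the largest difference between 1.5 and 5 h of all members. The gene for HMG-CoA synthase (mm10 chromosome 13, 119690462 to 119708086) was at 333.5, 351, 441 and 189 CPM in control and at 0.5, 1.5 and 5 h. Lanes of 1 library ranged no wider than 429 to 446 CPM, at 1.5 h, so the lanes of the 4 conditions did not overlap. Hmgcs1 was 1.32-fold higher than control at 1.5 h (interval 1.29 to 1.35), and its 5 h level was 1.76-fold below control (1.71 to 1.82) and 2.33-fold below that at 1.5 h (2.26 to 2.40). Acat2, which joins acetyl-CoA units a step earlier, was level until 1.5 h, at 119, 115 and 121 CPM, and then at 70.7 CPM, 1.68-fold lower than control (1.59 to 1.77). Only 47.7% of its exon reads were unique, and in unique reads the difference was 1.61-fold.

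The kinases and the decarboxylase that carry mevalonate to the isoprenoid unit went separate ways at 1.5 h. Mvk, mevalonate kinase, was at 41.8, 39.2, 33.3 and 24.6 CPM and so was lower at each later time, 1.25-fold after 1.5 h (interval 1.16 to 1.36) and 1.70-fold after 5 h (1.56 to 1.86). Pmvk, the next kinase, was 1.30-fold higher at 1.5 h (58.8 against 76.7 CPM) and close to control at 5 h, at 55.5 CPM. Mvd, the decarboxylase, was level at 37.1, 35.4 and 38.9 CPM and then at 19.1 CPM, 1.94-fold lower (1.76 to 2.14), the largest difference of any member at 5 h. Mvd overlaps the feature Gm20388, at 122 CPM in control, and without stated strand their reads may mix; in unique reads, 79.7% of the total, Mvd was 1.83-fold lower.

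Among the enzymes that convert and join isoprenoid units, Idi1 differed most at 1.5 h. Idi1, the isomerase of the isoprenoid unit, was at 143, 153, 209 and 124 CPM, 1.46-fold higher after 1.5 h (1.40 to 1.51) and 1.16-fold lower than control at the last time. Fdps, farnesyl diphosphate synthase, was at 237, 241, 258 and 180 CPM, 1.32-fold lower at 5 h (1.27 to 1.37). Fdps had the lowest unique share of the members, 34.0%, and was 1.37-fold lower in unique reads. Ggps1, which makes the geranylgeranyl lipid used to anchor proteins and so leaves the sterol route, was the only sterol-list enzyme above control at 5 h. Its values were 23.7, 26.5, 28.7 and 25.8 CPM, and it shares its position with Arid4b, at 105 CPM.

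The first enzymes committed to sterol were flat and then low. Fdft1, squalene synthase, was at 109, 101, 117 and 63.1 CPM, 1.73-fold lower at 5 h (1.64 to 1.83), with Ctsb, at 311 CPM, overlapping it. Sqle, squalene epoxidase, was at 237, 226, 262 and 149 CPM, 1.60-fold lower (1.54 to 1.65). Lss, which closes the sterol rings, was at 143, 146, 156 and 94.7 CPM, 1.51-fold lower (1.44 to 1.58). With 47.5% of reads unique, Lss was 1.33-fold lower in unique reads, short of the 1.5-fold line.

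From lanosterol to cholesterol, Cyp51 stood out at 1.5 h. Cyp51 (chromosome 5, 4081145 to 4104746), which removes the first methyl group, was at 272, 294, 431 and 229 CPM. It was 1.59-fold higher at 1.5 h (1.55 to 1.63), the largest difference above control of a member, then 1.19-fold lower than control and 1.88-fold lower than at 1.5 h (1.83 to 1.94). Msmo1, the methyl oxidase that follows, was at 137, 156, 191 and 91.9 CPM, 1.39-fold higher and then 1.50-fold lower than control, just under the 1.5-fold line. Its 5 h level was 2.08-fold below that at 1.5 h (1.99 to 2.18).

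Hsd17b7 and Sc5d, a ketone reductase and a desaturase of the same stretch, had that course with a smaller difference above control at 1.5 h. Hsd17b7 was at 67.7, 75.9, 90.0 and 55.7 CPM, and Sc5d at 82.6, 86.4, 103 and 63.1 CPM. Nsdhl, which removes the methyl carbon as a carboxyl group, was level to 1.5 h and 1.23-fold lower at 5 h. Dhcr7, the last reductase, was lower at each time, at 233, 220, 204.5 and 170 CPM, and 1.37-fold lower at 5 h (1.33 to 1.42).

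A pair of enzymes differed from the others in course. Ebp, the sterol isomerase, was at 43.4, 40.1, 42.7 and 42.2 CPM, and the intervals of its folds at 1.5 and 5 h included 1. Tm7sf2, a sterol reductase and the lowest member per length, was at 17.0, 14.3, 13.6 and 13.8 CPM, 1.25-fold lower than control at 1.5 h and 1.23-fold lower at 5 h (1.09 to 1.40), where it was 1.01-fold (0.883 to 1.16) of its 1.5 h level. Vps51, at 51.9 CPM, overlaps Tm7sf2.

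Counted together, 8 of the 19 sterol enzymes were at least 1.2-fold higher at 1.5 h, a line passed by 14.5% of features. They were Hmgcs1, Pmvk, Idi1, Ggps1, Cyp51, Msmo1, Hsd17b7 and Sc5d. At the same time 2, Mvk and Tm7sf2, were at least 1.2-fold lower, a line passed by 13.2% of features. The count of 2 was 1 without lane 2, when 5 CPM was added in place of 1, or when 20 CPM was required. The median log2 ratio of the 19 was 0.12, beside -0.01 for all features. At 5 h, 14 of 19 were at least 1.2-fold lower, against 16.3% of features, and 7 were at least 1.5-fold lower, against 2.98%. None was 1.2-fold higher, against 14.9% of features, and the median was -0.40 beside -0.005. The 7 were Acat2, Hmgcs1, Mvk, Mvd, Fdft1, Sqle and Lss.

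Between 1.5 and 5 h, without the control library, 16 of 19 were at least 1.2-fold lower and 11 at least 1.5-fold lower, against 12.0% and 2.12% of features. None of the 19 was at least 1.2-fold higher, which 10.3% of features were. The median log2 ratio was -0.70. The exceptions were Ggps1, Tm7sf2 and Ebp. Hmgcs1 and Msmo1 were at least 2-fold lower on log2(CPM + 1), and 0.540% of features passed that line in either direction. Mvd, at 38.9 and 19.1 CPM, was 2.03-fold lower as a plain ratio (1.84 to 2.24) and at a log2 ratio of -0.99 fell just short, so 3 members passed with a pseudocount of 0.1 CPM or without lane 3. No other comparison had a member past 2-fold on that scale. At 0.5 h none of the 19 passed 1.2-fold either way, where 1.65% of features were lower and 5.32% higher. The comparisons with control share that library, so the 1.5 and 5 h values are not independent of each other.

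**Figure D2:**
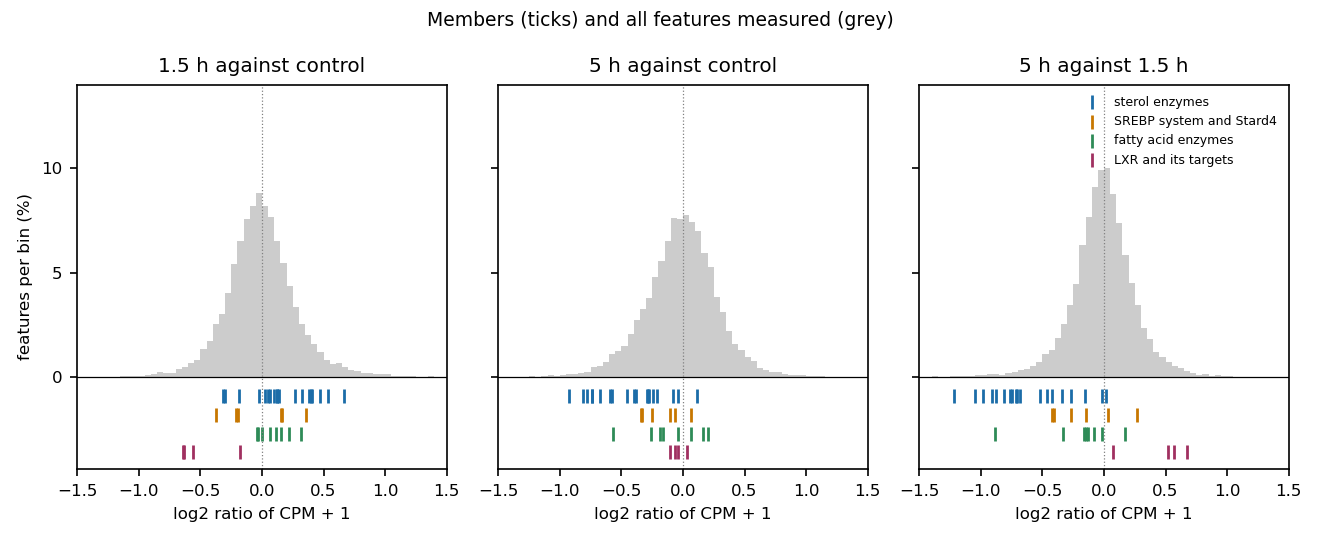
Distribution of log2 ratios of CPM + 1 over all 11122 features measured (grey, percent of features per bin) with the 37 members as ticks below it, coloured by role, with panels for 1.5 h and for 5 h over control and for 5 h over 1.5 h. The sterol enzymes (upper row of ticks) lie left of 0 except 1 in the middle and in the right-hand panel, and the LXR targets (lowest row) lie left at 1.5 h and right between 1.5 and 5 h.

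The SREBP system itself moved less than the enzymes and not as a block. Insig1, which holds SREBP in the endoplasmic reticulum and is itself a gene that SREBP switches on, was the only member at least 1.2-fold higher at 0.5 h, which 5.32% of features were. That is 1 of 37 members, not above the share of all features. Insig1 (chromosome 5, 28071363 to 28078662) was at 227, 295, 253 and 191 CPM. Its fold over control was 1.30 at 0.5 h (interval 1.26 to 1.34), and by 5 h it was 1.19-fold lower (1.15 to 1.23). Its lanes ran from 287 to 299 CPM at 0.5 h and from 219 to 235 CPM in control, with no overlap. Insig2, its relative, was at 36.1, 36.97, 31.2 and 37.8 CPM, lowest when many sterol enzymes were highest.

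Of the transcription factors, Srebf2 was at 493, 531, 551 and 457 CPM and stayed within 1.12-fold of control. Srebf1, which acts more on fatty acid genes, was at 336, 340, 294 and 266 CPM, 1.26-fold lower at 5 h (1.23 to 1.30), and overlaps Rai1, at 163 CPM. Scap, the escort of SREBP, was at 335, 329, 258 and 264 CPM, 1.30-fold lower than control at 1.5 h and still 1.27-fold lower at 5 h (1.23 to 1.31). Stard4, which carries cholesterol between membranes, was 1.28-fold higher at 1.5 h (1.24 to 1.33), at 158, 173, 203 and 151 CPM. Of the 6 genes, 1, Stard4, was at least 1.2-fold higher and 1, Scap, lower at 1.5 h, and 2, Srebf1 and Scap, were lower at 5 h. Among all features 14.5% were higher and 13.2% lower at 1.5 h and 16.3% lower at 5 h, so 1 of 6 is near the share of all features.

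Fasn was the fatty acid enzyme that had the course of the sterol enzymes. Fasn (chromosome 11, 120805940 to 120824178), the fatty acid synthase, was at 732, 790, 912 and 493 CPM, 1.25-fold above control after 1.5 h (1.23 to 1.27) and 1.48-fold below it after 5 h (1.45 to 1.51). From 1.5 to 5 h it was 1.85-fold lower (1.81 to 1.89). Its lanes in the 4 conditions did not overlap. Of the 8 fatty acid genes Fasn was the only one past 1.2-fold against control at 1.5 or 5 h. Among all features 14.5% were higher at 1.5 h and 16.3% lower at 5 h, so 1 of 8 is near the share of all features. Fads2 joined Fasn only between 1.5 and 5 h, at 1.26-fold lower (1.21 to 1.31), a line that 12.0% of features passed.

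The neighbours of Fasn in the pathway did not share its 5 h level. Acly, which makes cytosolic acetyl-CoA, was at 659, 686, 715 and 639 CPM. Acaca, which makes the malonyl-CoA that Fasn uses, was level at 179, 184 and 179 CPM and at 201 CPM at 5 h, 1.12-fold higher (1.08 to 1.16). Elovl6, which lengthens the product, was at 113, 122, 126 and 119 CPM.

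The desaturases changed little, and Scd2 was the most abundant member per length. Scd2, a stearoyl-CoA desaturase, had 2740, 2752, 2662 and 2403 CPM and a mean of 484 CPM per kilobase of exon, the highest of the 37, where Tm7sf2 had the lowest, 4.22. Scd1, its paralog, was at 886, 877, 1033 and 1021 CPM, 1.17-fold higher at 1.5 h and 1.15-fold at 5 h (1.13 to 1.17), so it held at 5 h a level at which Fasn was low. Fads1 and Fads2, which desaturate polyunsaturated chains, were at 182 and 203 CPM in control and at 163 and 169 CPM at 5 h. Fads2, at a log2 ratio of -0.26, lay just under the 1.2-fold line. Reads of the paralogs Scd1 and Scd2 could in part be shared, and 92.8 and 94.2% of them were unique.

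**Figure D3:**
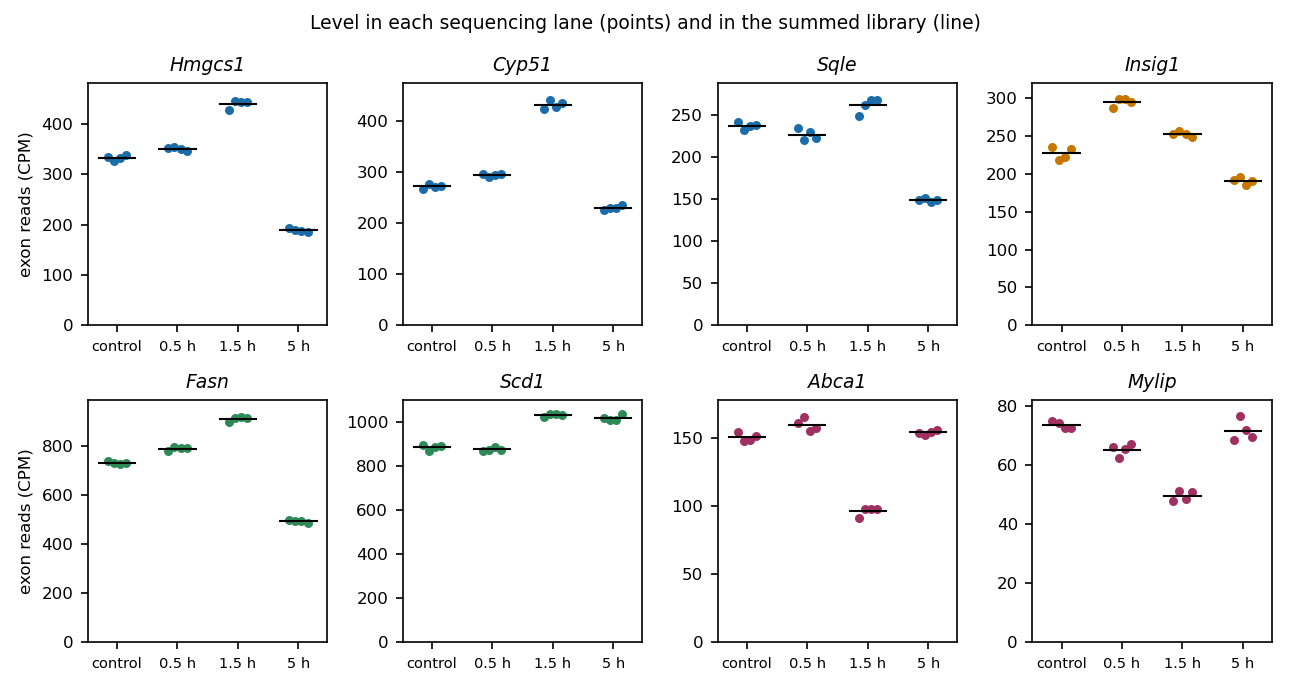
Exon reads in CPM for 8 members, each of the 4 lanes of a library as a point and the summed library as a line, in control and after 0.5, 1.5 and 5 h; the axis of each panel starts at 0. Lane spread, which is technical, is small beside the steps between conditions for Hmgcs1, Cyp51 and Fasn (493 CPM at 5 h against 912 CPM at 1.5 h).

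The LXR targets were lower than control at 1.5 h, when Cyp51 and Fasn were higher. Abca1 (chromosome 4, 53030787 to 53159895), which loads cholesterol onto lipoproteins outside the cell, was at 151, 160, 96.3 and 154 CPM, 1.57-fold lower at 1.5 h (1.50 to 1.64). Abcg1, another sterol exporter, was at 231, 223, 149 and 221 CPM, 1.55-fold lower at 1.5 h (1.50 to 1.61). Mylip, the ligase that marks the lipoprotein receptor for breakdown, was at 73.7, 65.3, 49.7 and 71.6 CPM, 1.48-fold lower (1.39 to 1.58).

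At 5 h the 3 targets were back near control, at log2 ratios of 0.03, -0.07 and -0.04. Nr1h2, which encodes the receptor LXR beta, was at 105, 112, 93.1 and 97.9 CPM. At 1.5 h 3 of 4 genes were at least 1.2-fold lower, against 13.2% of features, and 2, Abca1 and Abcg1, at least 1.5-fold lower, against 1.99% of features. From 1.5 to 5 h 3 of 4 were at least 1.2-fold higher, against 10.3% of features, and Abca1 was 1.60-fold higher (1.53 to 1.68), the only one of the 4 past 1.5-fold, against 1.30% of features. The other LXR receptor, Nr1h3, was measured at 1.26 to 1.74 CPM.

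Reads that fall in a gene outside its exons, which include reads of unspliced RNA, were taken as total gene reads minus exon reads and scaled to the exon reads of the library. A fold was taken where the 2 libraries together held 50 or more such reads. At 0.5 h, when exon reads had changed little, 11 of 37 members were at least 1.5-fold higher by this measure, against 4.23% of features. The 11 comprised 7 sterol enzymes, Insig1 and Stard4, and Fasn and Scd1. Their exon folds at 1.5 h, which share the control library, are given with them.

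Cyp51 had 296 such reads in control and 649 at 0.5 h, 2.24-fold higher (1.95 to 2.57), and 1.59-fold more exon reads at 1.5 h. Idi1 had 51 and 111, 2.22-fold higher (1.58 to 3.16), with 1.46-fold more exon reads later. Msmo1 had 369 and 737, 2.04-fold higher (1.795 to 2.31), with 1.39-fold more exon reads at 1.5 h. Few reads stand behind Idi1, so its interval is wide.

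Hmgcs1 had 333 and 613 reads outside exons, 1.88-fold higher (1.64 to 2.15), with 1.32-fold more exon reads at 1.5 h. For Pmvk the value was 1.76-fold, for Sc5d 1.69-fold and for Hsd17b7 1.64-fold, and exon reads at 1.5 h were 1.30-, 1.25- and 1.33-fold of control. Among the other groups Scd1 was 1.99-fold higher (1.72 to 2.31), Stard4 1.92-fold, Fasn 1.64-fold (1.21 to 2.23) and Insig1 1.57-fold (1.39 to 1.78). Their exon reads at 1.5 h were 1.17-, 1.28-, 1.25- and 1.11-fold of control in that order, so Scd1 and Insig1 stayed under 1.2-fold. Sqle and Scd2, at 1.37- and 1.38-fold, lay under the line. In unique reads outside exons the fold at 0.5 h was 1.90 for Hmgcs1 and 2.51 for Cyp51.

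Other members were lower outside exons at 0.5 h. Mylip had 1072 reads in control and 521 at 0.5 h, 2.02-fold lower (1.82 to 2.25), before its exon level was lowest. Scap was 1.45-fold lower (1.32 to 1.61) and Abcg1 1.37-fold lower (1.27 to 1.48). With Tm7sf2 and Ebp these made 5 of 37 members at least 1.2-fold lower, against 13.4% of features, so their share was near that of all features. Abca1 was 1.10-fold of control (0.957 to 1.27).

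By 1.5 h the reads of the sterol enzymes outside exons were mostly no longer above control, with 5 of 18 above it. Of all features with enough reads, 5581 of 9512 were above control. The median over 18 enzymes was 0.870-fold of control, where all features had 1.06-fold, and 6 of 18 were at least 1.2-fold lower, against 18.5% of features. Hmgcs1 was 1.37-fold lower (1.16 to 1.63) and Cyp51 1.15-fold higher (0.983 to 1.36). The fatty acid enzymes had a median of 1.25-fold, after 1.23-fold at 0.5 h, but single genes differed between those times. At 1.5 h Fasn was at 1.54-fold (1.12 to 2.11), Acaca at 1.47-fold (1.33 to 1.62), where it had 0.931-fold at 0.5 h, and Scd1 at 1.44-fold (1.23 to 1.69). Fads1 went from 1.28- to 0.925-fold and Scd2 from 1.38- to 1.08-fold. The LXR group had a median of 0.787-fold, and Abca1 was 1.49-fold lower (1.27 to 1.77).

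At 5 h the sterol enzymes were lower in both kinds of reads. Outside exons 12 of 18 were at least 1.2-fold lower, against 7.79% of features, with a median of 0.767-fold where all features had 1.13-fold. Scaled to all reads outside exons, which brought the median of all features to 1.03-fold (log2 0.04 in place of 0.17), 16 of 18 were lower, against 14.6% of features. Hmgcs1 was 1.61-fold lower (1.34 to 1.94), Fdft1 1.52-fold and Mvk 1.46-fold. Cyp51 was 0.952-fold of control in total reads (0.802 to 1.13), and 0.760-fold of control in unique reads. Scd1 stayed higher, at 1.48-fold (1.26 to 1.73), and the LXR targets lay between 1.15- and 1.19-fold, near the median of all features. Mvd had too few reads for a fold at 1.5 and 5 h. For Fdft1, Ggps1, Tm7sf2 and Srebf1 some of these reads could belong to the overlapping genes named above.

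**Figure D4:**
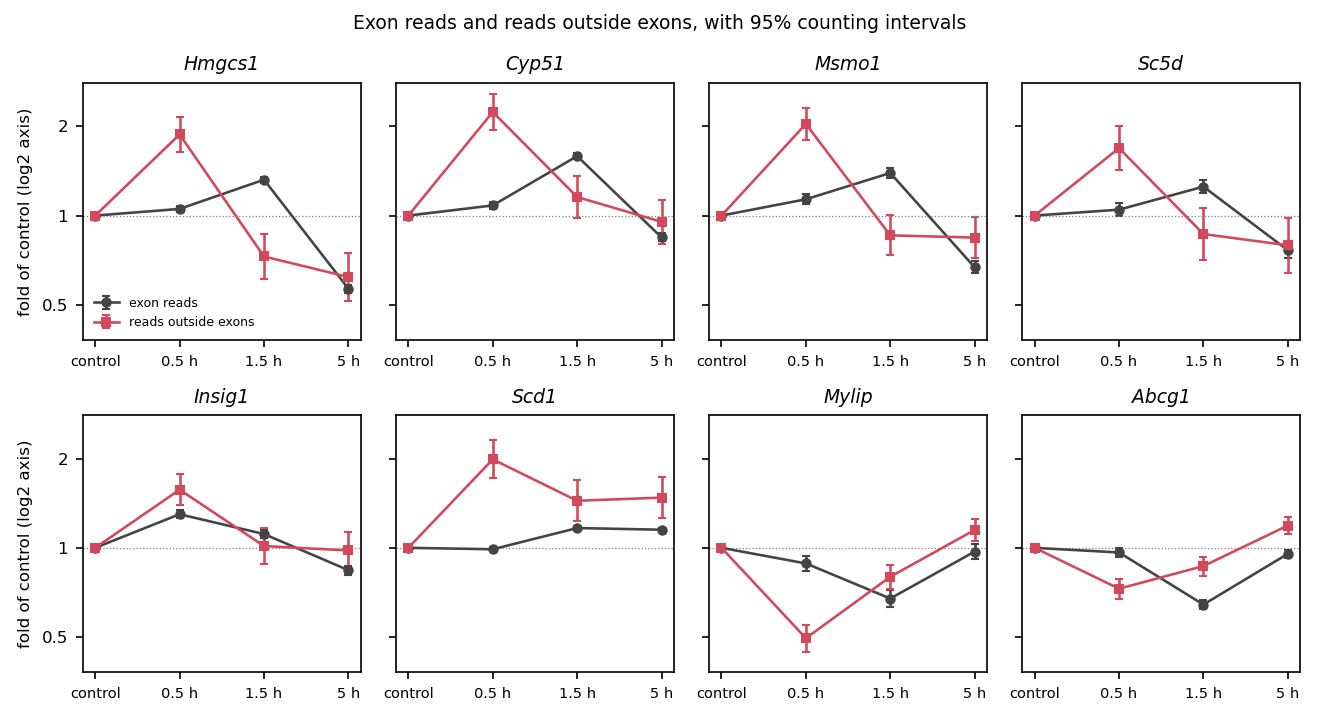
Fold of control (log2 axis) of exon reads (grey circles) and of reads outside exons (red squares) for 8 members at 0.5, 1.5 and 5 h, with 95% counting intervals and control set to 1. For Hmgcs1, Cyp51, Msmo1 and Sc5d the red line peaks at 0.5 h and the grey line at 1.5 h, and for Mylip both lines run low at those times (2.02-fold lower outside exons at 0.5 h).

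Neighbouring pathways from lists of general knowledge were counted in the same way at 5 h, when 16.3% of features were at least 1.2-fold lower and 14.9% higher. Of 19 measured genes of sterol handling, 16 held the 5 CPM needed to be counted. Of these 16, 1 was at least 1.2-fold lower and 3 higher, the latter near the share of all features. The lower one was Npc2, which moves cholesterol out of lysosomes, at 654 and 503 CPM, and the higher ones were Apoe, a lipid carrier, at 22.4 and 32.1 CPM, Tmem97, at 60.1 and 82.4 CPM, and Rxrb, at 94.2 and 114 CPM. Mbtps1, the protease that makes the first SREBP cut, was 1.31-fold higher at 5 h than at 1.5 h (1.24 to 1.37).

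Of 16 measured genes of fatty acid supply and lipid assembly, 3 were at least 1.2-fold lower and 4 higher at 5 h, against 16.3% and 14.9% of features. The lower were Acss2, Lpin1 (1.25-fold) and Slc25a1 (1.22-fold), and the higher Gpam, Hsd17b12 (1.26-fold), Lpin2 (1.26-fold) and Acsl5 (1.24-fold). Acss2, which makes acetyl-CoA from acetate, was 1.69-fold lower (1.46 to 1.96) at 15.3 and 9.11 CPM. Gpam, which starts glycerolipid assembly, was at 260 CPM in control, 203 at 1.5 h and 397 at 5 h, 1.52-fold higher than control (1.48 to 1.57), in the opposite direction to Fasn. Lpin1, Lpin2 and Mcat, on the same list, were 1.48-, 1.42- and 1.43-fold lower at 1.5 h.

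Of 11 measured genes that use isoprenoids, none was at least 1.2-fold lower at 5 h, and Nus1, among those higher, was at 1.32-fold. Of 13 measured genes of fatty acid oxidation, all 13 were below control at 5 h, beside 5648 of 11122 features. Their median log2 ratio was -0.17, but 2 passed 1.2-fold, Cpt1a at 1.25-fold and Decr1 at 1.32-fold lower. That share is near the 16.3% of all features. Cpt1a, which admits fatty acids to mitochondria, was 1.31-fold lower at 1.5 h (1.25 to 1.37).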

How the data were processed

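Poly(A) RNA libraries of the pre-B cells were sequenced on a HiSeq system, per the labels' protocols, and the submitters' processing notes name CASAVA 1.8.2 and the build mm10. The aligner, the counter and its strand setting were not given in the sources used here. Raw counts stand in the 3 deposited tables, per the file headers: they are counts of total and unique exon reads and total and unique gene reads for each feature and lane, with exon length in other columns. The RPKM and fold change columns were not used. Control counts were the same in every table and 0 columns were left unmatched. Lanes were summed per condition, since each condition has 1 index; the chi-square per degree of freedom between lanes was 0.992 to 1.01 in unique reads and 1.24 to 1.32 in total reads, over features with at least 20 reads.

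Counts were scaled to CPM, and log2 ratios took a pseudocount of 1 CPM. Folds are CPM ratios with exact 95% intervals, which cover counting error only, since no molecular identifiers were used and PCR copies are not separate molecules. The scripts (Python 3.11.15, numpy 2.4.6, pandas 2.3.3, scipy 1.17.1) were tested on simulated counts. Members, gene lists and tests were chosen with earlier results of these data known. All 37 members are named with values, and, of each other list, up to 3 genes with the largest change in a comparison; Rxrb, Slc25a1 and Acsl5 were added after their values were seen. Alternatives were edgeR 4.0.16 TMM factors, DESeq2 1.42.0 size factors (scaling only), pseudocounts of 0.1 and 5 CPM, no floor or 20 CPM, exon reads that are unique, gene reads in total, and each lane left out; for reads outside exons, scaling per 1000000 such reads was planned, and unique reads were added after the data were seen. A comparison of paralog proteins was planned and not run.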

Additional observations from a re-analysis of the deposited data

Results flagged for a closer look

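Among 148 sets of 4 lanes, one for each member and condition, 8 had a lane that lay far from the other 3 beside their range, and chance sets apart about 1 set in 20. At 1.5 h, Hmgcs1 had 429 CPM in lane 1 against 443.5 to 445.9 in the others, Mvk 29.5 CPM in lane 1 against 34.2 to 34.9, Abca1 91.1 CPM in lane 1 against 97.8 to 98.3 and Abcg1 158 CPM in lane 1 against 145 to 147. At the same time Msmo1 had 185.5 CPM in lane 2 against 192.5 to 193.9, and Idi1 200.4 CPM in lane 4 against 210.7 to 211.9. Fdft1 at 5 h had 61.8 CPM in lane 4 against 63.4 to 63.5, and Scd1 at 0.5 h had 889 CPM in lane 3 against 871 to 874. Of the 8, 4 were in lane 1 of the 1.5 h library. Lane differences are technical.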

How the results depend on the processing

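With 1 library per condition, differences between libraries of 1 condition are unknown, and no paired analysis was possible because lanes of 1 library are not replicates and no test was run. Under the alternatives a count was listed as moved only past a 1.5-fold change. A median was listed only on a change of sign or outside an interval of its members' values. For the SREBP, fatty acid and LXR groups that interval was the members' full range, so the size of their medians was hardly checked. By these rules the 1.2-fold and 2-fold counts and the group medians held, apart from the following, whose cause was not tested. The SREBP median at 1.5 h, -0.02, was 0.00271 with TMM factors. The sterol median at 0.5 h, 0.0207, was -0.0108 in unique reads, and without 1 lane each it ran from -0.0187 (lane 1) to 0.0154. The LXR median at 0.5 h, 0.0161, was -0.0122 in total gene reads. The count of sterol enzymes 1.2-fold lower at 1.5 h, 2, was 1 with a pseudocount of 5 CPM or a floor of 20 CPM, and 1 to 2 without 1 lane each (1 without lane 2). That at 0.5 h, 0, ran from 0 to 1 (1 without lane 4). In total gene reads 1 sterol enzyme was 1.2-fold higher at 0.5 h, and 1 member rather than 2 passed 2-fold between 1.5 and 5 h, where a pseudocount of 0.1 CPM gave 3 and leaving out 1 lane each gave 2 to 3 (3 without lane 3). Reads outside exons of Idi1 at 5 h, 0.749-fold on 51 and 34 reads, ran from 0.615 to 1.02 without 1 lane each (1.02 without lane 2). Scaled to reads outside exons, 6 of the members' folds of such reads left their counting interval, all at 5 h, among them Srebf2 (1.07 to 0.979), Acly (0.967 to 0.882), Abcg1 (1.19 to 1.09) and Mylip (1.15 to 1.05); the sterol enzymes 1.2-fold lower at 5 h numbered 16 in place of 12, and at 1.5 h 8 in place of 6. Of the alternatives' folds of members' exon reads at 5 h, all but 4 (292 folds) stayed within their counting interval.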
